A study of Homo sapiens with 41 samples.

Results

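The wide Pol II domains of unstressed T47D cells are the stretches of 50 kb or more that were called as a single RNA polymerase II (Pol II) region in either of the 2 untreated Pol II libraries. Such regions were merged where they overlapped by 1 bp, on chromosomes 1 to 22 and X, which gave 514 domains out of 144493 merged untreated Pol II regions. The domains were thus chosen by their called width in unstressed cells. They span 46.99 Mb of the 387.7 Mb that these regions span, and 266 were that wide in both untreated libraries, 168 in replicate 1 alone and 80 in replicate 2 alone. T47D is an established human luminal breast carcinoma line, here kept without steroid hormones and then overnight without serum before 110 mM NaCl was added to the medium of the stressed cells. Chromatin immunoprecipitation with sequencing gave Pol II lists from 2 libraries after 1 h of NaCl and 2 without stress. For RAD21 there are 3 libraries after 1 h of NaCl followed by 1 h back in isotonic medium, 3 after 1 h of NaCl and 3 without stress. For CTCF there are 3 unstressed libraries, then 2 taken 7.5 min, 1 taken 30 min and 3 taken 1 h after NaCl was added, and 1 from isotonic recovery. Another 6 libraries, named in their titles as treated with triptolide (500 nM), an inhibitor of transcription initiation, are mentioned only in the closing section. The labels do not say whether replicates were separate cultures, so a p-value here speaks of variation among libraries that could be technical.

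Pol II reads DNA from the start of a gene to beyond its end, and termination normally follows cleavage of the transcript. A very long gene takes a polymerase a good part of an hour or more to cross, and a wide Pol II domain over a gene body is the trace of polymerases spread along it. CTCF binds a fixed DNA motif and halts the cohesin ring, of which RAD21 is a subunit, and the pair form the anchors of chromatin loops. Cohesin is also known to gather at active gene starts and to be moved along genes by transcription. Hyperosmotic stress is known to disturb transcription termination in human cells.

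The starts of 4 genes inside the widest domains show the kind of sequence on which untreated RAD21 peaks lay. The windows run from 250 bases before to 50 after a RefSeq transcript start (GRCh38.p14), 5′ to 3′ along the gene, with CG dinucleotides in capitals. At MED13L and APP the RAD21 peak was present in all 3 untreated and all 3 libraries at 1 h of NaCl. At TENM3 and ANKRD11 it was present in all 3 untreated libraries and in 0 libraries at 1 h.
MED13L, chr12:116277644-116277943, minus strand: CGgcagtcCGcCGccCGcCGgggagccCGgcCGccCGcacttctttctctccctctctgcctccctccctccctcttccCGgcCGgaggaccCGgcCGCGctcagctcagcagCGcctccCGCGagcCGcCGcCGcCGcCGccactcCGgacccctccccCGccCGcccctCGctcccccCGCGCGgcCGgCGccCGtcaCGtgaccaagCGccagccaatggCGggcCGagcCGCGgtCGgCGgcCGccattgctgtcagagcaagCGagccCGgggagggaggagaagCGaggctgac
APP, chr21:26170721-26171020, minus strand: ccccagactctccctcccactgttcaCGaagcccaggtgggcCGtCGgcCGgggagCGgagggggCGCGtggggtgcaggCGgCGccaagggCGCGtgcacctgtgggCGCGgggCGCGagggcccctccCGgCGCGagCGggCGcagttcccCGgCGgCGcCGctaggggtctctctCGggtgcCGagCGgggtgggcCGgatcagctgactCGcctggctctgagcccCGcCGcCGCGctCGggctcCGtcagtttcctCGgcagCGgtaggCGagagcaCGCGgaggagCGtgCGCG
TENM3, chr4:182448766-182449065, plus strand: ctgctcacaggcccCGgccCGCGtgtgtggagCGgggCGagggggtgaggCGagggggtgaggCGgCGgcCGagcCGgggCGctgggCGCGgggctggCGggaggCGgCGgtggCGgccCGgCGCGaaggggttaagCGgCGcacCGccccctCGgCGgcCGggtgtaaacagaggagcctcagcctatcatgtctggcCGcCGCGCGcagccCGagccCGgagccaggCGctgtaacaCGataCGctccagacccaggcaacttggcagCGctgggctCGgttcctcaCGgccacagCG
ANKRD11, chr16:89490512-89490811, minus strand: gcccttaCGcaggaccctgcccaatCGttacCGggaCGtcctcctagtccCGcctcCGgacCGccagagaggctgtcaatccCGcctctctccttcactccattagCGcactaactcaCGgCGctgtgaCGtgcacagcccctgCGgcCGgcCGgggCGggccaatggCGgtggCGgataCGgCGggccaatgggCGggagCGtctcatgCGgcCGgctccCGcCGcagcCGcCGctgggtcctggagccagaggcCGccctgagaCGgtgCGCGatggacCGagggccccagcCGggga
MED13L encodes a subunit of the Mediator kinase module, APP the amyloid precursor protein, TENM3 a teneurin adhesion receptor and ANKRD11 a chromatin regulator. The 4 windows hold 43, 43, 39 and 34 CG dinucleotides, against a median of 14 over all 34961 promoter windows, 23 over the 1336 windows of starts inside or within 5 kb of a domain and 32 over the 89 of these under a RAD21 peak in all untreated libraries.

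In 413 of the domains 1 protein-coding gene made up at least 50% of the domain. The domains' median width was 69.86 kb (range 50.1 to 433.8 kb), 127 were at least 100 kb and 28 at least 200 kb wide, and 84.1% of their bases lay in a protein-coding gene. Of the 514 domains, 201 overlapped 1 protein-coding gene, 162 overlapped 2, 137 overlapped 3 or more and 14 overlapped none. Together they touched 1079 of 19821 protein-coding genes (5.44%). The gene with the largest overlap had a median length of 79.9 kb, against 24.5 kb over all genes. The width rule favours long genes, so nothing is read from this difference. Yet length alone did not place a gene in a domain, since 5.52% of the 1396 genes over 200 kb overlapped one. Domains were most frequent on chromosomes 21 and 17, with 5.04 and 4.06 per 100 protein-coding genes, and least on X and 19, with 0.59 and 0.922.

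The widest domain covered PATJ, a scaffold protein of epithelial tight junctions (chromosome 1, 61740241 to 62174052, 433.8 kb). It was followed by domains over NCAM2, a neural adhesion molecule (412.7 kb), NFIA, a nuclear factor I transcription factor (392.2 kb), SHANK2, a synaptic scaffold (390.2 kb), and TRPS1, a GATA-type repressor of luminal cells (362.3 kb). MED13L (342.3 kb), TENM3 (334.5 kb), ANKRD11 (321.7 kb) and ESR1, the oestrogen receptor (309.2 kb), came next. NFIB, ZFAND3, APP, EHMT1 and SAMD4A were also among the 15 widest, at 242.2 to 257.9 kb. Just inside the 50 kb limit were domains over ZNF217, CNOT6 and CLK3 (50.1 to 50.3 kb), and just outside it regions over SEMA4B, ARIH1 and PWWP2B (49.7 to 49.997 kb). Their mean coverage at 1 h was 39.95, 4.07 and 37.9% inside the limit and 38.97, 9.43 and 3.45% outside it.

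Genes that define luminal breast cells were common in the domains. Of 30 listed luminal identity genes 12 overlapped a domain, where 5.44% of all protein-coding genes did, among them ESR1, PGR, the progesterone receptor, FOXA1, the pioneer factor of oestrogen receptor binding, CDH1, E-cadherin, GRHL2 and PRLR. Of 28 genes for elongation, splicing and chromatin 13 did, including CREBBP, EP300, KMT2A, ARID1A and the elongation factor SUPT6H. Replication-dependent histone genes, which sit in dense clusters, gave 11 of 22, and oestrogen and progesterone targets 5 of 22 (PGR, XBP1, IGFBP4, SLC7A5 and RARA). None of 31 immediate early and MAP kinase response genes overlapped a domain, and NFAT5, the osmotic stress transcription factor, was the single one of 16 osmolyte pathway genes. Markers of haematopoietic, fibroblast and endothelial, neuronal and muscle, and basal epithelial cells gave 0 of 11, 0 of 12, 0 of 11 and 0 of 8. Of 16 T47D markers 14 had untreated Pol II somewhere in the gene, and SPDEF and KRT18 had none.

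After 1 h of NaCl the larger part of most domains was no longer called. On average 26.1 and 27.3% of a domain was covered in the 2 libraries at 1 h of NaCl, against 94.4 and 92.3% in the 2 unstressed libraries. The untreated values chose the domains, so this contrast is a description without a test, and called regions measure where Pol II passed the caller's threshold rather than how much Pol II was present. With domains chosen in 1 untreated library and measured in the other, coverage was 91.0 and 91.6% untreated and 26.2 to 30.8% at 1 h. Of the 514 domains 468 were less covered in each 1 h library than in each unstressed one, and 1 was more covered. The same call held for 81.4% of the regions of 25 to 50 kb and 19.4% of all regions outside the domains, with 1.05 and 0.356% more covered, and since untreated coverage chose the domains nothing is read from these shares. With only regions of a deposited -log10 q of at least 1.3, mean coverage was 6.83 and 2.68% at 1 h and 74.4% in both unstressed libraries.

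Loss of coverage was about as frequent in narrower regions. Under 50% of the domain was covered in both 1 h lists for 382 domains (74.3%), against 73.9% of the 1336 merged untreated regions of 25 to 50 kb and 79.4% of all 143986 regions outside the domains. At least 50% was covered in both lists for 57 domains (11.1%), against 9.66% and 4.04%. The whole Pol II lists held 107396 and 216968 regions at 1 h of NaCl and 105302 and 88046 without stress, spanning 212.3 and 261.7 Mb at 1 h and 291.9 and 257.2 Mb without stress, so the 1 h lists did not hold fewer regions. In a bulk assay, fewer cells with Pol II on a gene and less Pol II in each cell cannot be told apart.

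**Figure D1:**
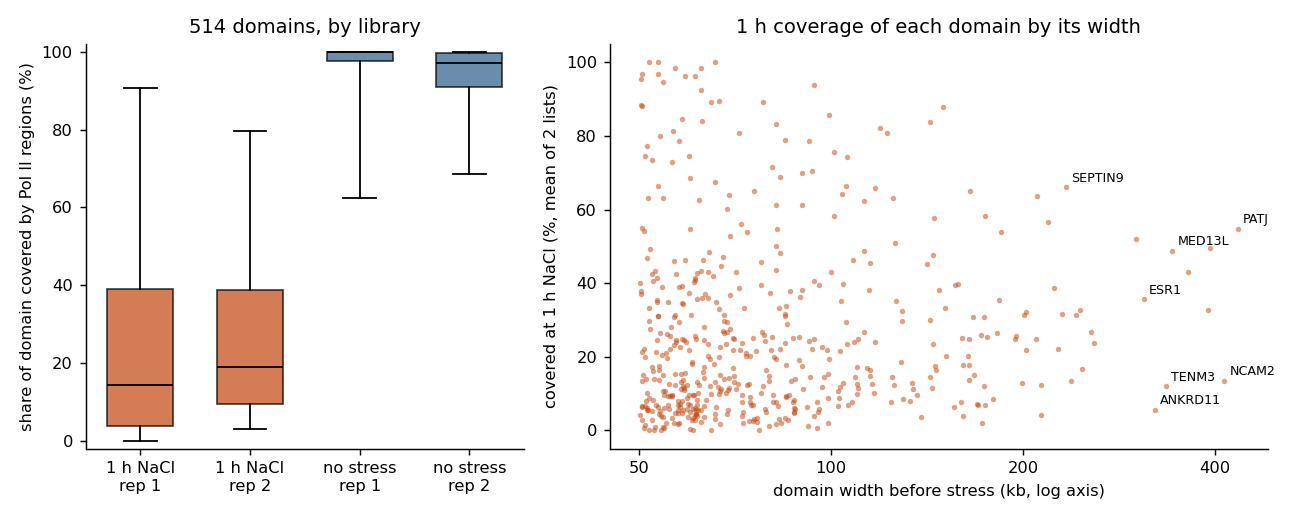
Left, share of each of the 514 domains covered by called Pol II regions in the 2 libraries at 1 h of NaCl and the 2 unstressed libraries (box, quartiles with the median; whiskers, 5th to 95th percentile). Right, mean share covered in the 2 lists at 1 h against domain width on a log axis, 1 point per domain, with the wide SEPTIN9, PATJ and MED13L domains well above TENM3, NCAM2 and ANKRD11.

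The 6 most covered domains were 51.8 to 65.9 kb wide. Among them DYNC1H1, the heavy chain of dynein, PLEKHA6, and DAPK3 with its neighbour EEF2, the translation elongation factor, were 100% covered in both lists at 1 h of NaCl, against 93.0 to 100% in the unstressed lists. GSPT1, a translation release factor, and PDGFB, a growth factor chain, were 100% covered in replicate 1 at 1 h and 97.0 and 93.9% in replicate 2, against 96.4 to 100% unstressed.  At the other end, 5 domains had no base covered in either 1 h list, over TMEM135, ST3GAL1, a sialyltransferase, KCNMA1, a potassium channel, YY1AP1 with DAP3, and the part of APP nearest its end.

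Among the widest domains the libraries at 1 h did not always give the same picture. PATJ had 57.1 and 52.5% of its domain covered at 1 h of NaCl, against 100 and 99.6% unstressed. TENM3 had 4.31 and 19.8% at 1 h, against 99.8 and 99.6% unstressed, and ANKRD11 had 1.49 and 9.74% at 1 h, against 98.6 and 91.8% unstressed. SHANK2 had 0 and 65.3% at 1 h, against 89.6 and 98.5% unstressed, and EHMT1, a histone methyltransferase, had 59.2 and 5.92% at 1 h, against 97.5 and 99.5% unstressed. For these last 2 genes the replicates at 1 h lay at opposite ends of the range. The other 10 of the 15 widest had between 9.93 and 59.1% covered in each library at 1 h.

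Luminal and chromatin genes spanned both extremes. The share of the gene span covered was 15.1 and 17.95% for PGR at 1 h of NaCl, against 100% in both unstressed lists. It was 11.1 and 16.8% for CDH1 at 1 h, against 100 and 95.2% unstressed, and 0 and 3.62% for MLPH, a melanosome transport adaptor, at 1 h, against 97.2 and 96.99% unstressed. XBP1, a secretory stress transcription factor, and IGFBP4 were 100% covered in both lists at 1 h, against 100% for XBP1 and 65.9 and 100% for IGFBP4 unstressed. XBP1 is 6.01 kb long, and its 53.6 kb domain, named by CCDC117, had a mean of 31.0% covered at 1 h. The domain that holds IGFBP4, named by TNS4, had 95.4%. ARID1A, a chromatin remodeller subunit, had 12.9 and 4.32% of its span covered at 1 h against 98.8 and 96.6% unstressed, while the acetyltransferase gene CREBBP had 57.1 and 55.3% at 1 h against 99.2 and 89.1% unstressed. SLC7A5, an amino acid transporter, kept 94.3 and 86.4% at 1 h, against 100% in both unstressed lists.

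In the widest domains the Pol II regions called at 1 h of NaCl covered more of the side toward the gene end. This was examined in 345 domains that had at least 50% of their bases in a gene of known strand (324 genes), a choice made after the data had been seen. Genes on chromosome 8 carry no strand in the table used, so TRPS1 is not among them. In the 41 such domains of 150 kb or more, the side of the midpoint toward the gene end was covered by 37.9 and 32.5% at 1 h of NaCl and the side toward the gene start by 17.3 and 15.7%. In unstressed cells the gene-end side was covered by 98.8 and 96.7% and the gene-start side by 96.97 and 95.9%. The gene-end side was the more covered in 33 and 31 of the 41 domains at 1 h, and the gene-start side in 8 and 10. Without stress the gene-end side was the more covered in 20 and 14 and the gene-start side in 7 and 25, with equal sides in the rest. With only regions of a deposited -log10 q of at least 1.3, the gene-end side was the more covered in 11 and 8 at 1 h, against 21 and 12 without stress. Domains with equal sides, such as those with no base left, were not set apart in these filtered counts. Coverage at 1 h was then 13.1 and 3.01% toward the gene end and 4.55 and 0.469% toward the start. In the 187 domains of 50 to 75 kb the sides differed little at 1 h (25.3 and 23.9% toward the gene end, 22.2 and 23.3% toward the start).

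The same asymmetry appeared with distance from the gene start and end. At 1 h of NaCl, coverage averaged 18.7 and 17.2% between 10 and 20 kb from the start and stayed between 14.7 and 27.4% up to 200 kb. Between 200 and 210 kb it was 34.7% in replicate 1 and 25.2% in replicate 2, the latter within the earlier range. Each bin holds only genes that long, and 49 of the 324 genes are at least 200 kb, so these bins hold different genes. Without stress the bin of 10 to 20 kb was covered by 77.3 and 77.4%. In the first 50 kb past the gene end 33.4% was covered in both 1 h libraries, against 43.4 and 40.7% without stress. Counted by gene, 67 of 324 genes (20.7%) were more and 147 (45.4%) less covered there at 1 h. Over all genes with a strand 22.6% were more and 35.3% less covered. Among the 68 genes with no other gene in that stretch 18 (26.5%) were more and 26 (38.2%) less covered. Of such genes overall 32.6% were more and 15.2% less covered. Many domains reach past the gene end, so the rule partly set the untreated coverage of this stretch. Farther out the order was the other way. In the 50 to 100 kb past the end, 42.1 and 37.8% was covered at 1 h of NaCl, against 24.9 and 22.7% without stress. Genes with another gene in that farther stretch were not set apart, so its Pol II can lie on a neighbour. In the 50 to 100 kb before the start, 14.3 and 15.3% was covered at 1 h, against 23.5 and 21.998% without stress. Coverage at 1 h was highest, 44.3% in replicate 1, between 110 and 120 kb past the end, and by 180 to 190 kb it was 19.8 and 20.4%, against 20.5 and 18.4% unstressed.

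**Figure D2:**
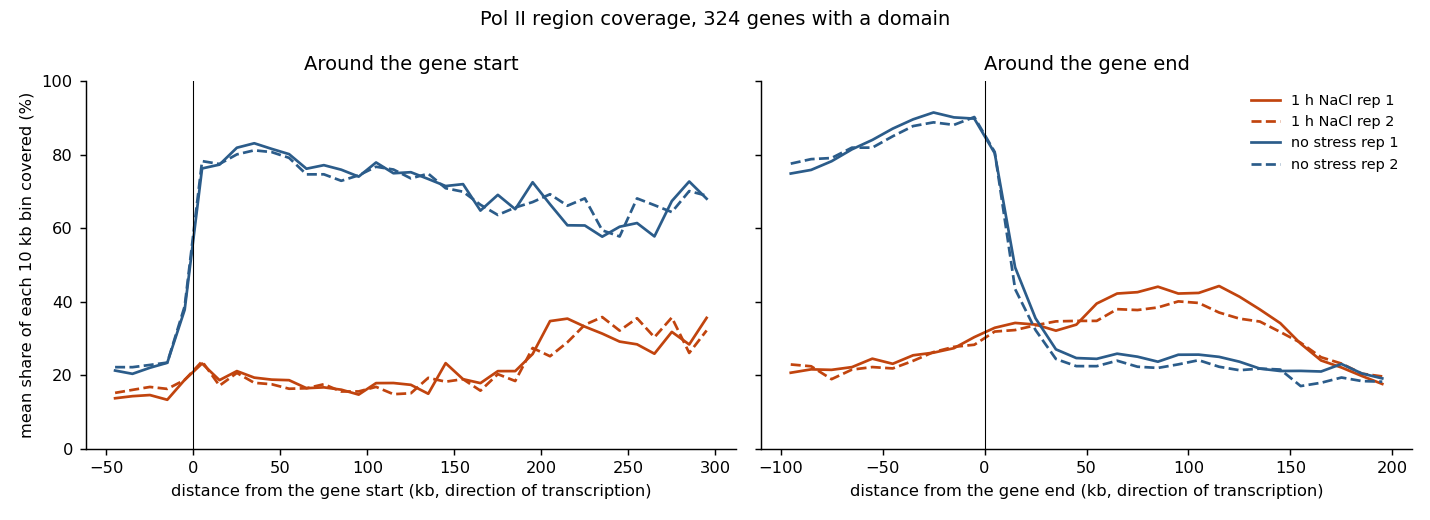
Mean share of each 10 kb bin covered by Pol II regions, by distance from the start (left) and the end (right) of the 324 genes with an oriented domain, along the direction of transcription; bins inside genes hold only genes that long. The 2 libraries at 1 h of NaCl (red) lie below the 2 unstressed ones (blue) in the gene and above them between about 50 and 140 kb past its end, where they reach 44.3%.

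Counted by gene, 148 of 324 genes with a domain (45.7%) were more covered 50 to 100 kb past the end in each 1 h library than in each unstressed one, where 29.8% of 15792 genes with a strand were. Before the start the count was 77 of 323 (23.8%), where 24.2% of all genes were. Less covered past the end were 52 genes (16.0%), where 27.2% of all genes were. Of the 676 genes under regions of 25 to 50 kb 36.1% were more covered past the end. The difference in coverage between past the end and before the start was 27.8 and 22.5 percentage points at 1 h of NaCl and 1.44 and 0.737 points without stress for genes with a domain. For genes of 25 to 50 kb regions it was 11.998 and 8.54 points at 1 h and 0.167 and -0.691 points without stress.

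These far regions were weakly enriched by the caller's own values. With only regions of a deposited -log10 q of at least 1.3, the 50 to 100 kb past the end were covered by 9.10 and 3.80% at 1 h of NaCl and 14.3 and 13.7% without stress, so the higher level at 1 h is lost, while the difference from the stretch before the start stayed larger at 1 h (6.77 and 2.54 points, against 1.64 and 0.762). That filter keeps 20.0 and 7.63% of the 1 h regions and 49.96 and 51.5% of the unstressed ones. Regions at or above 1.3 were overlapped by the other 1 h list in 33.7 and 23.9% of cases and regions below it in 30.1 and 18.1%, and by bases 37.9 and 34.5% against 29.7 and 24.8% recurred. Without stress 60.7 and 67.2% of the bases of regions at or above 1.3 recurred, against 47.9 and 55.8% below it. Whether each deposited q belongs to its region could not be settled from the lists, which limits every value with this filter.

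In many single genes the longest called Pol II stretch at 1 h of NaCl lay away from the first part of the gene. For each of the 41 genes whose domain is at least 150 kb wide, regions within 5 kb of each other were joined and the longest stretch of at least 50 kb was taken, from 50 kb before the gene to 250 kb past it. Such a stretch was found for 29 and 25 genes at 1 h of NaCl and for 41 in each unstressed library. At 1 h it began a median of 190.4 and 204.8 kb from the gene start and ended 137.4 and 101.2 kb past the gene end. Without stress it began a median of 2.24 and 3.19 kb before the start (-2.24 and -3.19 kb from it) and ended 14.01 and 10.46 kb past the end. In 16 of the 20 genes with a stretch in both 1 h libraries, it began and ended more than 20 kb farther along in each 1 h library than in either unstressed one. That window reaches farther past a gene than before it, so the search was repeated with 250 kb on both sides, an alternative added after the data had been seen. Both ends then lay more than 20 kb farther downstream in 15 of 20 genes and more than 20 kb farther upstream in 0. Some stretches at 1 h began past the gene. That of LARP4B, 181.4 kb long, began at 191.1 and 228.3 kb, and that of PGCKA1, 140.3 kb long, at 152.2 and 145.4 kb. Neighbouring genes were not excluded, so a stretch can lie on a neighbour, and genes without a domain were not searched. The unstressed stretch is largely the domain that the rule chose, so these counts are a description.

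In MED13L the shift was seen in both libraries. Its stretch ran from 188.4 to 518.9 kb and from 226.6 to 499.7 kb from the gene start in the 2 libraries at 1 h of NaCl, against -6.74 to 340.2 kb and -8.45 to 333.9 kb without stress. The gene is 319.1 kb long, so at 1 h the stretch ended 199.8 and 180.6 kb past its end. PATJ, 421.4 kb long, had a stretch from 198.5 to 555.9 kb and from 207.3 to 509.3 kb at 1 h, against -2.24 to 431.6 kb and -3.30 to 430.2 kb unstressed. In both genes the stretch at 1 h left out at least the first 188.4 kb. PREX1, an exchange factor for Rac, had a stretch from 247.9 to 450.98 kb and from 247.7 to 426.8 kb at 1 h, against 55.6 to 291.8 kb and 56.5 to 290.5 kb unstressed. ESR1, 472.9 kb long, had one from 403.5 to 588.9 kb and from 374.3 to 519.8 kb at 1 h, against 145.2 to 459.6 kb and 147.3 to 455.5 kb unstressed. NFIA and SEPTIN9, a cytoskeletal septin, had theirs at 190.4 to 529.6 kb and 60.8 to 346.0 kb in replicate 1 at 1 h, and at 309.8 to 420.6 kb and 174.0 to 280.5 kb in replicate 2. Without stress the NFIA stretch began at -1.18 and -1.26 kb and the SEPTIN9 stretch at -1.44 and -1.10 kb. PREX1 was picked after its values had been seen.

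**Figure D3:**
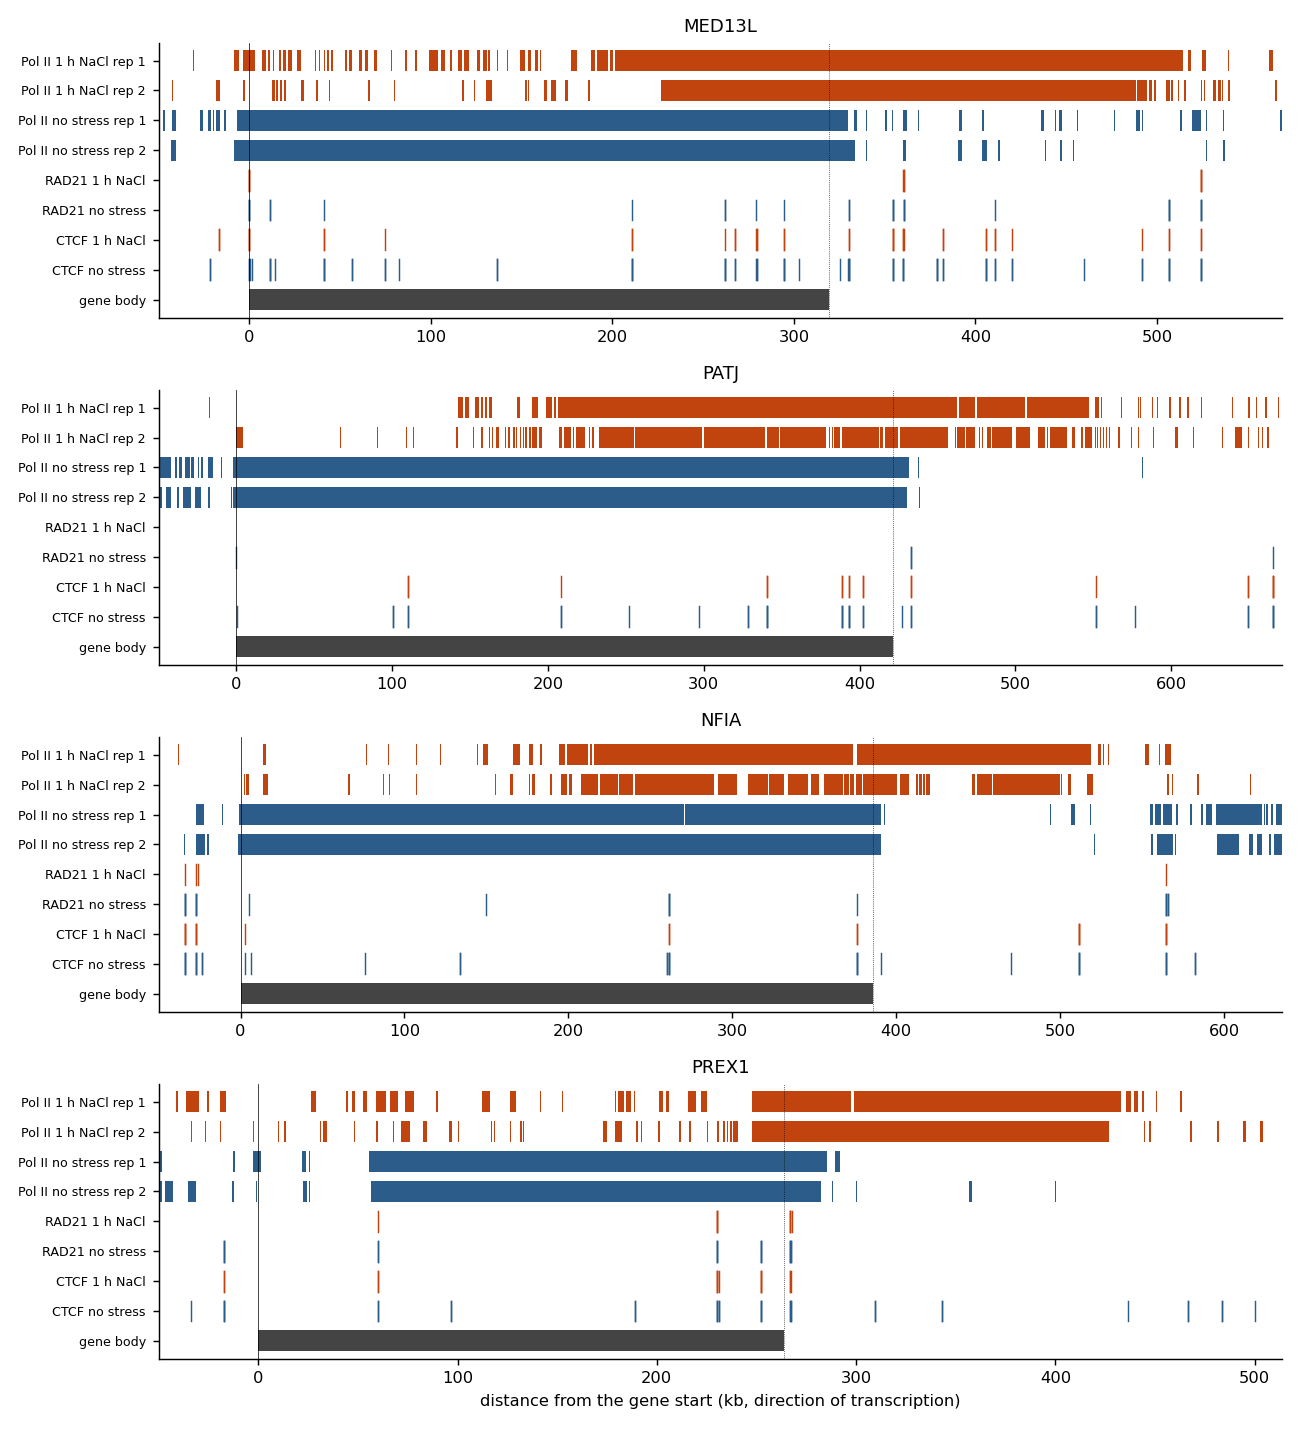
Called Pol II regions (bars, 1 row per library), RAD21 and CTCF summits (ticks, the 3 libraries of a state overlaid) and the gene body (grey) at MED13L, PATJ, NFIA and PREX1, by distance from the gene start along the direction of transcription. In each gene the wide Pol II block of the 1 h libraries (red) starts far inside the gene and ends past the gene end (dotted line), while that of the unstressed libraries (blue) ends near it.

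The shift was not found everywhere. TENM3, ANKRD11 and APP had no stretch of 50 kb at 1 h of NaCl. ANKRD11 had 0 and 1.17% of the 50 to 100 kb past its end covered at 1 h, against 17.4 and 16.1% unstressed. NCAM2 had short stretches of 55.7 and 58.6 kb at 1 h, against 412.3 and 471.0 kb unstressed, in different places in the 2 libraries. Pol II regions of 50 kb or more at 1 h numbered 322 and 115, of which 84 and 33 touched a domain. Of the 46 and 16 pairings with an oriented domain, 42 and 15 reached past the domain on its gene-end side. Of all pairings 36 and 13 did so and also began inside the domain, while 2 and 1 did the opposite at both ends. Some domains and regions enter more than 1 pairing. TRPS1, without a strand in the table, also had its wide region moved, by 184.4 and 188.7 kb at its left end, to the same side in both libraries.

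CTCF and RAD21 peaks were denser in the domains than in the rest of the genome in every library, but less dense than in regions of 25 to 50 kb. Per Mb of domain there were 13.2 to 19.3 CTCF summits at 1 h of NaCl, against 21.8 to 34.8 without stress, and these densities were 1.42 to 1.84 times those outside at 1 h and 1.52 to 2.18 times without stress. RAD21 had 2.49 to 5.38 summits per Mb of domain at 1 h, against 11.4 to 15.8 without stress, or 1.53 to 2.12 times the density outside at 1 h and 1.95 to 2.57 times without stress. In the regions of 25 to 50 kb there were 21.4 to 27.6 CTCF summits per Mb at 1 h and 27.9 to 45.8 without stress, and 3.66 to 8.52 RAD21 summits at 1 h and 17.1 to 18.4 without stress. Both factors were called at fewer places genome-wide at 1 h of NaCl (22018 to 35374 CTCF and 4761 to 7843 RAD21 peaks, against 38571 to 59843 and 13762 to 24931 unstressed). Shares of a library's peaks are therefore compared below.

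The mean RAD21 share in domains was lower at 1 h of NaCl, but the groups overlapped. Summits in a domain were 2.46, 3.23 and 2.35% of RAD21 peaks at 1 h of NaCl in replicates 1 to 3, against 3.39, 3.89 and 2.98% without stress. The log2 ratio of the shares was -0.36 (exact 2-sided permutation test, p = 0.2, where 3 libraries against 3 cannot go below 0.1), -0.37 within the first submission set and -0.34 within the second. In regions of 25 to 50 kb the log2 ratio was -0.19 (exact permutation p = 0.6), and the ratio of the domain share to that share did not differ past its spread (log2 -0.17, exact permutation p = 0.3). After isotonic recovery the share was 3.23, 3.37 and 2.90% (log2 ratio to 1 h 0.25, exact permutation p = 0.2).

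The CTCF share differed in the same direction by less. It was 2.73, 2.34 and 3.31% without stress. It stood at 2.16 and 2.13% after 7.5 min, at 2.11% after 30 min and at 2.57, 2.18 and 2.82% after 1 h of NaCl. Every NaCl library lay below the unstressed library of its own number or set, but the groups overlapped. The log2 ratio was -0.26 for any NaCl time (exact permutation p = 0.119, smallest possible 0.0238) and -0.14 for 1 h alone (exact permutation p = 0.5). The single library after recovery had 3.24% (exact Clopper-Pearson 95% interval 3.08 to 3.40%, counting error only).

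**Figure D4:**
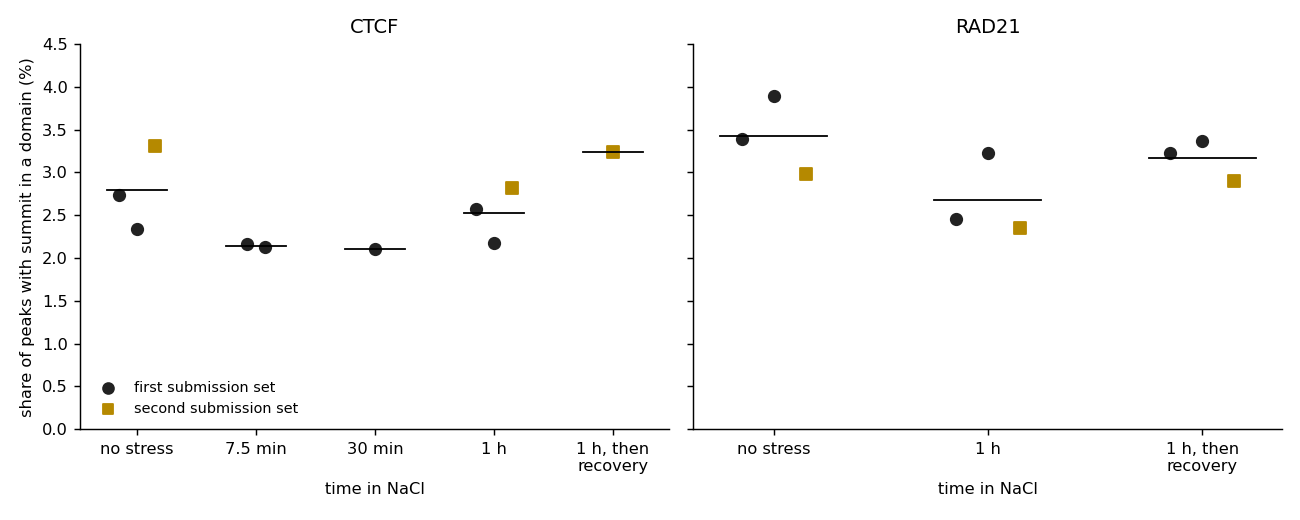
Share of each library's CTCF (left) and RAD21 (right) peaks whose summit lies in a domain, by time in 110 mM NaCl, with the recovery libraries last; circles are libraries of the first and squares of the second submission set, and lines are group means. The RAD21 libraries at 1 h lie between 2.35 and 3.23% and those without stress between 2.98 and 3.89%.

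Sites present in all 3 unstressed libraries were absent at 1 h for a somewhat larger share in the domains than elsewhere, a difference that was not tested. Of 332 such RAD21 sites in domains, 133 (40.1%) were in no library at 1 h of NaCl and 92 (27.7%) in all 3, against 32.1 and 34.7% of 9766 sites outside the domains. In regions of 25 to 50 kb 38.6% of 464 were lost. Of 687 CTCF sites in domains 61 (8.88%) were lost and 377 (54.9%) kept, against 5.77 and 57.1% of 24909 outside. Sites in all 3 libraries at 1 h and no unstressed one numbered 28 for CTCF and 2 for RAD21 outside the domains. Both factors had 0 in the domains and 0 in regions of 25 to 50 kb. With so few outside, where shared sites were far more numerous, nothing is read from the 0 in domains. The share of RAD21 sites lost was 36.1% of 61 sites in domains with under 10% of Pol II coverage at 1 h, 40.2% of 199 in those with 10 to 50%, and 43.1% of 72 in those with at least 50%. Whether these shares differ was not tested.

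The 5 kb just inside domain ends held denser CTCF and RAD21 than the domain interior. In the 5 kb just inside a domain end there were 24.7 to 35.02 CTCF summits per Mb at 1 h of NaCl and 32.1 to 63.8 without stress. In the 5 kb just outside there were 10.7 to 15.2 at 1 h and 16.9 to 25.1 without stress, in each library fewer than in its domain interiors. More than 5 kb inside the ends there were 11.4 to 17.4 at 1 h and 20.5 to 31.3 without stress. RAD21 had 5.06 to 14.6 summits per Mb inside the ends at 1 h and 30.2 to 34.4 without stress, and 2.17 to 4.25 farther in at 1 h and 8.55 to 14.1 without stress. The border share, summits within 5 kb of an end among those in or within 5 kb of a domain, was 26.1, 23.7 and 29.2% for CTCF at 1 h and 25.9, 22.7 and 28.4% without stress (log2 ratio 0.04, exact permutation p = 0.7). For RAD21 it was 28.3, 35.04 and 26.0% at 1 h and 32.0, 38.2 and 25.9% without stress (log2 ratio -0.10, exact permutation p = 0.8).

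The end at the gene start differed from the end past the gene. Of the 345 oriented domains 132 began within 5 kb of the start of their gene, 153 more than 5 kb downstream of it and 60 more than 5 kb upstream, so the gene-start end of a domain was often not at the gene start. Only 18 ended within 5 kb of its end and 78 more than 5 kb before it, while the others ended past it, a median of 10.05 kb beyond the end over all. In the first 5 kb inside the gene-start end, RAD21 had 5.22, 24.3 and 5.22 summits per Mb at 1 h of NaCl, against 50.4, 57.97 and 39.4 without stress. In the 5 kb inside the gene-end side it had 6.96, 9.28 and 6.96 at 1 h, against 20.9, 20.3 and 23.2 without stress. Every library at 1 h lay below every unstressed one on both sides, with RAD21 lists that were shorter at 1 h. Per 1000 peaks of the library the densities overlapped, at 1.096, 3.10 and 0.787 at 1 h against 2.76, 4.21 and 1.58 without stress on the gene-start side and 1.46, 1.18 and 1.05 at 1 h against 1.14, 1.47 and 0.93 on the gene-end side. Among RAD21 summits within 5 kb of either end, the gene-start side held 33.3, 64.3 and 28.1% at 1 h of NaCl, against 64.1, 68.1 and 54.3% without stress. The mean share was lower at 1 h, with overlapping groups (log2 ratio -0.66, exact permutation p = 0.3). It was 55.3, 65.4 and 52.6% after isotonic recovery. This split was made after the data had been seen. For CTCF the gene-start side held 52.7, 46.0 and 52.7% at 1 h and 51.7, 44.8 and 56.2% without stress (log2 ratio -0.01, exact permutation p = 1).

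**Figure D5:**
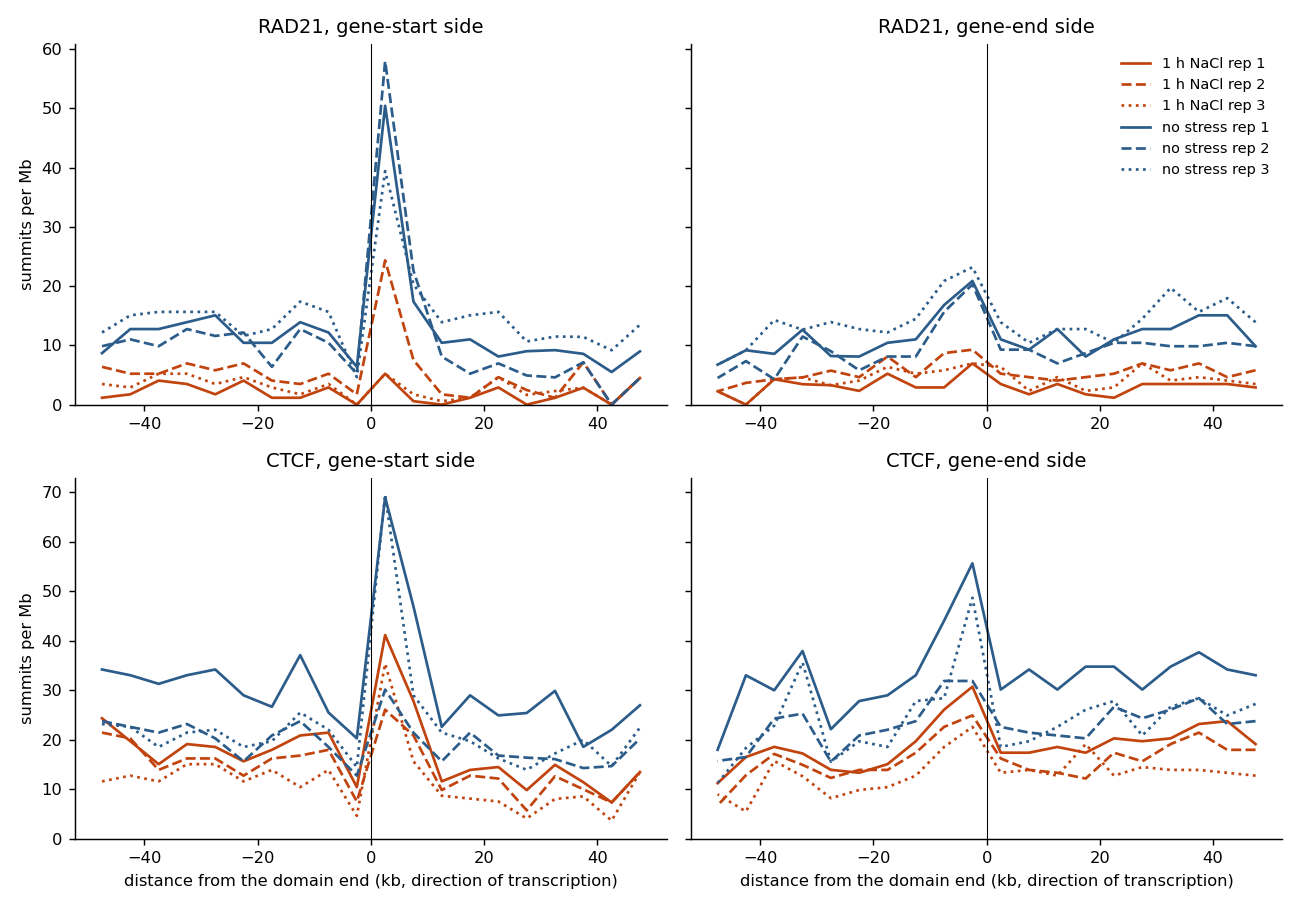
RAD21 (top) and CTCF (bottom) summits per Mb in 5 kb bins around the gene-start side (left) and gene-end side (right) end of 345 oriented domains, 1 line per library at 1 h of NaCl (red) and without stress (blue); positive distances lie downstream. The RAD21 peak just inside the gene-start end reaches 39.4 to 57.97 per Mb without stress and 5.22 to 24.3 at 1 h.

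RAD21 sites at gene starts outside the domains gave similar shares. Of 49 shared RAD21 sites at the gene-start end 23 (46.9%) were lost and 7 (14.3%) kept, against 40.4 and 21.7% of 1712 sites within 5 kb of gene starts outside the domains. Of 41 at the gene-end side 14 (34.1%) were lost and 15 (36.6%) kept, against 33.2 and 32.4% of 1199 sites near gene ends outside. Many gene-start peaks lay away from CTCF. Of RAD21 peaks at the gene-start end 72.4, 55.96 and 77.6% overlapped a CTCF peak of the same state and set without stress, compared with 98.2, 88.2 and 85.9% at the gene-end side.

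The mean share of RAD21 peaks at CTCF was higher at 1 h, with overlapping groups. Of RAD21 peaks in domains 94.9, 79.8 and 90.4% overlapped CTCF at 1 h of NaCl, against 81.1, 76.1 and 72.3% without stress (log2 ratio 0.21, exact permutation p = 0.2). Over all RAD21 peaks the shares were 99.1, 91.4 and 90.9% at 1 h and 93.8, 88.2 and 76.9% without stress. When every library was reduced to an equal number of its strongest peaks the log2 ratio in domains turned to -0.08 (exact permutation p = 0.1), so list length moves with this result.

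Individual domains differed widely in how many CTCF and RAD21 peaks they held. The densest lay over groups of short genes. ACBD4 with HEXIM1 and HEXIM2, inhibitors of elongation kinase P-TEFb, led with 231.8 summits per Mb, followed by SETD1B, a histone methyltransferase, and HOXC4 to HOXC10, with ZBTB7B, DIDO1 and LMNA, which encodes nuclear lamins A and C. In the ACBD4 domain RAD21 had 1, 2 and 1 peaks at 1 h of NaCl, against 5, 5 and 7 without stress, and 3 of 5 shared sites were lost. In the SETD1B domain it had 4, 5 and 4 peaks at 1 h, against 5 in each unstressed library, and 4 of 5 shared sites were kept, although Pol II covered 0 and 1.28% of that domain at 1 h. LARP4B, ZNF276 with FANCA and ZBTB7B also lost 3 shared RAD21 sites each. HDGF, SEPTIN9 and LMNA kept 3 each, and TNRC18 and PIEZO1 kept 2 each.

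The widest domains held few peaks. PATJ had 18.4 summits of both factors per Mb, NFIA 17.0, TRPS1 10.1 and ESR1 11.9, against a median domain of 37.0. The ESR1 domain held more RAD21 than CTCF peaks in replicates 1 and 3 of both states. There were 5, 0 and 5 RAD21 peaks at 1 h of NaCl, against 4, 0 and 5 without stress, and 0, 1 and 0 CTCF peaks at 1 h, against 1, 0 and 1 without stress. It was singled out after its values had been seen. No unstressed library had a summit of either factor in 42 domains, among them domains over DYNC1H1, HUWE1, TRIP12, KANSL1, EP300, MED13, NFAT5 and PDS5B, a cohesin regulator. At 1 h of NaCl 328 domains held no RAD21 peak in any of the 3 libraries, against 135 without stress, and 111 held no CTCF peak, against 48. The lists of both factors were shorter at 1 h genome-wide, and empty regions outside the domains were not counted. Nothing particular to the domains is therefore read from these counts.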

How the data were processed

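Peak lists of 29 immunoprecipitated libraries out of 41 samples were used. The 12 inputs have no list here. Each list comes from 1 library and has the layout that MACS2 writes. Per the submitters' processing notes, cutadapt, Bowtie2 (2.2.6) and MACS2 were used with build hg38, and for the first submission set also DiffBind (2.4.6), DESeq2 and HOMER. The control, the calling threshold and each tool's role: not given in the sources used here. The authors' lists give per peak a deposited integer score, a fold enrichment (a ratio to the caller's background), and deposited -log10 p and -log10 q values, used here only to filter or rank peaks. Read depth is unknown, so the number of peaks is the only measure of it given.

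Domains, coverage and peak positions were computed from interval ends with Python 3.11.15, numpy 2.4.6, pandas 2.3.3, scipy 1.17.1 and matplotlib 3.10.9, and the interval and test functions were tested on simulated intervals with known answers. A CTCF or RAD21 peak was in a domain when its summit was. A border is 5 kb to each side of a domain end. Peaks of the untreated and 1 h libraries were merged into sites, which were shared when present in all 3 untreated libraries, lost when in no and kept when in all 3 libraries at 1 h. Exact 2-sided permutation tests were run on log2 shares. Genes are the 19821 protein-coding genes of a RefSeq table of GRCh38.p14, without 153 placed on alternate scaffolds, and strand is known for 15812. Promoter sequences come from the same RefSeq build.

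Samples were grouped by title. Titles and pre-treatment tags disagree on triptolide in 6 of the 12 libraries of the second set, and the series text gives a slightly different NaCl concentration. The second set gave replicate 3, and the numbers 1 and 2 come from the titles of the first. For CTCF, same-numbered libraries shared deviations from the group means across the 514 domains (r = 0.19, 0.50 and 0.44), so those numbers pair the libraries.

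The members, gene lists and comparisons were chosen with earlier results of these data known. Domains are named by the protein-coding gene they overlap most. Named were the 15 widest, the 6 most and least covered at 1 h, the 6 with most CTCF and RAD21 summits, those with none, the 6 that lost or kept most RAD21 sites, the 3 on each side of the width limit and members of the gene lists, and some of these are not reported here. The comparison along the gene direction, the flanks past genes and the division of borders by side were added after the data had been seen. Alternatives were other width minimums, each untreated list alone, joined regions, overlap in place of summits, stricter q and fold, equal peak numbers, other border widths, each library left out and a replicate block.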

Additional observations from a re-analysis of the deposited data

Results flagged for a closer look

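One value outside the comparisons above stood out. The RAD21 library titled as unstressed with triptolide had 4.201% of its peaks in the domains (exact Clopper-Pearson 95% interval 4.01 to 4.40%, counting error only), above the highest of the 3 unstressed libraries without it (3.39, 3.89 and 2.98%, of which the last shares its submission set). It also had the longest RAD21 list, with 40969 peaks, and its tag does not name triptolide although its title does. In the RAD21 libraries titled as triptolide with 1 h of NaCl and with recovery the shares were 2.90 and 3.34%, and in the 3 CTCF libraries with triptolide they were 3.24% unstressed, 2.83% at 1 h and 3.09% after recovery. Each is a single library, so no test was made.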

How the results depend on the processing

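The number of domains followed the rule closely, with 775 at a minimum of 40 kb, 222 at 75 kb and 1760 when regions within 5 kb were joined, and 361 to 450 from a single unstressed list. Mean coverage at 1 h of NaCl was 4.75% when only 1 h regions of -log10 q of at least 1.3 counted (74.4% unstressed), 21.6% with joined regions, 30.4% with domains from replicate 2 alone and 26.1 to 30.4% over the left-out lists, against 26.7%. All 16 alternatives of the RAD21 share at 1 h kept its direction (log2 -0.50 to -0.23), as did the 16 of the CTCF share (-0.26 to -0.01), the 19 for any NaCl time (-0.38 to -0.13) and the 16 for recovery (0.16 to 0.39), none past 0.05. Leaving out 1 library gave -0.50 to -0.26 for RAD21, -0.26 to -0.01 for CTCF, -0.38 to -0.13 for any NaCl time and 0.17 to 0.39 for recovery. The border shares had no fixed direction. The CTCF ratio turned to -0.0218 with a 2 kb border and ranged from -0.0488 to 0.115 over left-out libraries. The RAD21 ratio turned to 0.02 with domains from replicate 2, 0.0963 with joined regions and 0.0431 with a 2 kb border, and ranged from -0.241 to 0.038 over left-out libraries. RAD21 at CTCF turned to -0.0788 with equal peak numbers and ranged from 0.15 to 0.28 over left-out libraries. Why these turned was not tested.

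With the replicate block the CTCF and RAD21 shares at 1 h kept log2 ratios of -0.14 and -0.36 (exact permutation p = 0.25 each, the smallest that 3 pairs allow), and the CTCF share for any NaCl time was -0.19 (p = 0.0833, exact permutation). The block changed no call. For RAD21 same-numbered libraries shared deviations only weakly (r = 0.03, 0.14 and 0.12 over domains). Replicates 2 and 3 correlated best with their own number and replicate 1 with another. The RAD21 share in domains was lower at 1 h in all 3 same-numbered pairs. The gene-start share of RAD21 border peaks stayed lower at 1 h in all 12 alternatives (-1.01 to -0.15). The difference between past the gene end and before the start stayed larger at 1 h in all 5 (3.46 to 26.7 points, against 24.1). The 2 Pol II libraries per state and an unknown depth limit what can be said of the domains, and called regions do not measure Pol II amount.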
